A study of Mus musculus with 4 samples.

Results

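The 10 genes described here encode 5 STAT transcription factors (Stat3, Stat4, Stat5a, Stat5b and Stat6), 2 SOCS feedback inhibitors (Socs1 and Socs3) and the 3 PIM kinases (Pim1, Pim2 and Pim3). The genes, and the lists further below, were chosen with earlier results of these data known. Their probes were taken by name: every array probe carrying one of these gene symbols was kept, whatever its signal, which gave 14 of 39429 probes. All 10 genes had a probe that passed the detection filter, among 15961 genes tested. The RNA came from spleen B cells of male mice, purified with magnetic beads and kept in culture until day 3 with antibodies to IgM, to trigger the antigen receptor, and to CD40, to mimic help by T cells, at 10 µg/mL each. One group was C57BL/6 (WT) and the other lacked Ackr4 (Ackr4ko), a scavenging receptor that internalises chemokines but does not couple to G proteins. How the Ackr4 allele was made is not given in the sources used here. There were 2 independent experiments with different donors, and each supplied 1 array of each genotype. The donors were 73 (Ackr4ko) and 77 (WT) days old in experiment 1, and 71 and 74 days old in experiment 2.

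STAT proteins are latent factors that JAK kinases phosphorylate at the cytoplasmic tails of cytokine receptors, after which they dimerise and enter the nucleus. STAT3 is the main factor downstream of IL-6, IL-10 and IL-21 receptors, STAT4 of the IL-12 receptor, the STAT5 pair of IL-2 and IL-7 type receptors, and STAT6 of the IL-4 and IL-13 receptors. SOCS proteins are made in response to STAT activity and switch the same receptors off, and PIM kinases are short-lived serine/threonine kinases whose genes respond to STAT and NF-kappaB and which favour survival and growth of lymphocytes. The arrays measured RNA and not phosphorylation, so the values below are transcript signals. In RNA from a whole culture, fewer cells carrying a transcript and less transcript per cell cannot be told apart.

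The probes of the 4 genes on which the results turn were Agilent 60-base oligonucleotides. The 30 bases at the 5′ end of each are shown so that the transcript stretch behind each value can be located, with mm9 positions of those 30 bases, beside the probes of the neighbouring Stat5a and Stat5b.
Socs3, chr11:117827510-117827539, minus strand: ccttcgaggctgtctgaagatgcttgaaaa
Pim3, chr15:88695626-88695655, plus strand: ctccgcacgcaacctaagcgtgccaccacg
Stat4, chr1:52163802-52163831, plus strand: agaaggaagcagatgaaactggagagtgtt
Stat3 brighter probe, chr11:100749628-100749657, minus strand: cactctgtgagctgataccccaggctggga
Stat3 dimmer probe, chr11:100759976-100760005, minus strand: tttaacattctgggcacgaacacaaaagtg
Stat5a, chr11:100746373-100746402, plus strand: ctctctgaaggaagcagagggatgcttttt
Stat5b brighter probe, chr11:100642075-100642104, minus strand: tgaggcagccacaaaattgtgtattttatg
Stat3, Stat5a and Stat5b lie next to each other on chromosome 11. The Stat5a probe starts 3225 bases from the nearer Stat3 probe, on the opposite strand, and 104186 bases from the nearest Stat5b probe. The probes do not share long stretches: over the 91 pairs of the 14 probes the longest common run was 12 bases, and between Stat5a and Stat5b it was 7 bases. Whether each stretch is coding or untranslated was not annotated here, since no mm9 gene models were used.

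The deposited files disagree on genotype. In the authors' value table, 4 of 4 columns matched best the scanner array of the other genotype from the same experiment (r = 0.9990 to 1.0000 over 16207 probes, while r with their own sample's array was 0.9786 to 0.9858). Ackr4 could not settle it, because neither of its 2 probes was detected on any array (well above background on 0 of 4). Arrays are therefore called labelled Ackr4ko and labelled WT after the scanner files, and if the value table has the genotypes right, "higher" and "lower" swap throughout. Of the probes, 42.2% to 54.9% were well above background. WT replicate 2 was unlike the other arrays, with the lowest of these shares, 6.24% outlier spots against at most 2.12% elsewhere, and a local background reaching 292, where the other arrays reached 76 at most. B cell identity was clear, with 8 of 8 B cell markers well above background on every array. With 2 arrays per group, an exact two-sided permutation test cannot give a p below 0.333, and the labels say that donors differed between experiments but not how many animals each array holds.

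Of the 10 genes, 6 were higher on the array labelled Ackr4ko in both experiments and 0 were lower in both, against 33.0% and 20.9% of all genes tested. Because the choice of genes and lists was not blind to these data, such comparisons with all genes, here and below, are descriptive only. Those 6 were Stat3, Stat4, Stat6, Socs3, Pim2 and Pim3, although Stat6 turns to lower in experiment 1 when arrays are centred on their medians. The Stat6 difference in experiment 1 was only 0.0075, and its other probes were lower there (-0.21 and -0.63). With the mean of all tested probes of a gene, 5 genes were higher in both. In 4 of the 6 (Stat3, Stat4, Socs3 and Pim3) both arrays labelled Ackr4ko lay above both labelled WT, which held for 19.0% of all genes. Socs3 was the only one of the 10 at least 2-fold higher in both experiments, where 1.28% of all genes were. The plot of signal by gene and array shows these 4 pairs apart and the other 6 close together or crossing.

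**Figure D1:**
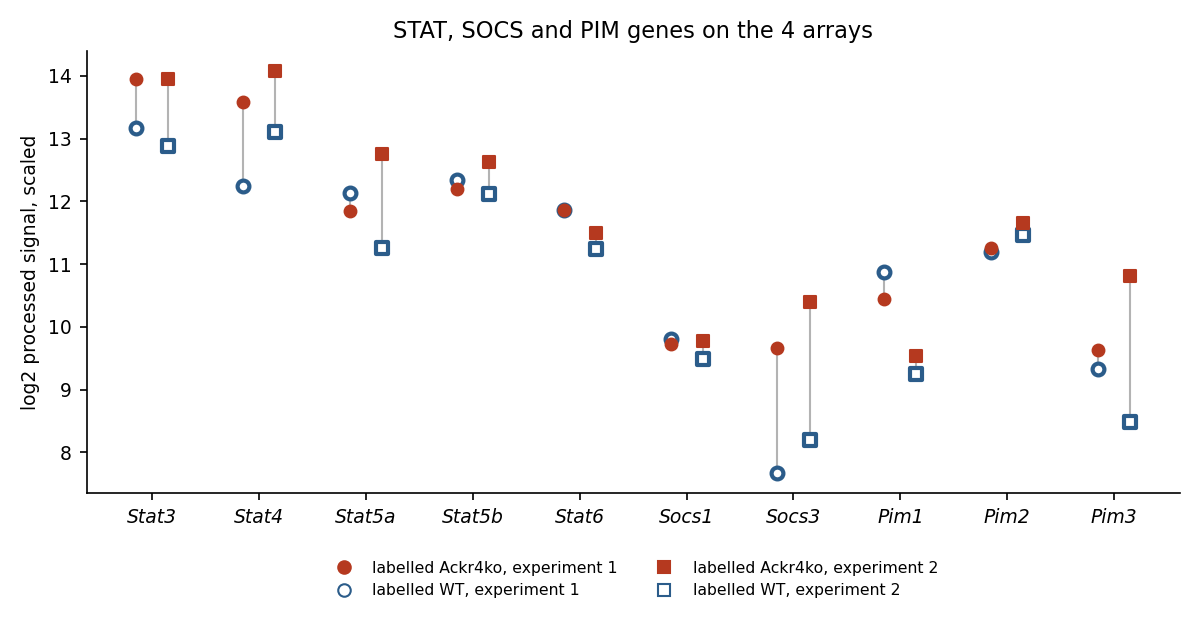
Log2 processed signal, scaled to each array's 75th percentile (vertical axis), of the probe that stands for each of the 10 genes (horizontal axis); filled red symbols are arrays labelled Ackr4ko, open blue symbols arrays labelled WT, circles experiment 1 and squares experiment 2, with a line joining the 2 arrays of an experiment. The red symbols lie above both blue ones for Stat3, Stat4, Socs3 and Pim3; heights are not comparable between genes, since each probe has its own brightness.

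None of the 10 passed limma without a block after Benjamini-Hochberg adjustment over all genes (0 called, against 0.0125% of all genes, and 4 with an unadjusted p under 0.05, against 4.59%). With the experiment as a block, Socs3, Stat4 and Pim3 passed limma at adjusted p under 0.05 (3 of 10, against 3.33% of all genes). The blocked fit gave every gene the same standard error of 0.348, so its p-values rest on a spread pooled over all genes and not on each gene's own. The fit without a block also borrowed spread from all genes, with 6.61 prior degrees of freedom. The SEs and intervals given per gene below come from that fit and rest only in part on the gene's own spread. For Stat3 the SE was 0.33, beside SDs of 0.00076 (arrays labelled Ackr4ko) and 0.20 (arrays labelled WT). With quantile normalization, a combination chosen after seeing the data, the blocked fit called 0 of the 10 and 0 genes in all (1446 at an unadjusted p under 0.05). The median difference of the 10 genes was 0.04 in experiment 1 and 0.74 in experiment 2 on the log2 scale, beside -0.04 and 0.23 over all genes. The scaling matters for experiment 2: with quantile normalization the median of all genes there was 0.04 and that of the 10 genes 0.43.

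Among the STAT genes, Stat4 and Stat3 were the pair whose groups did not overlap. Stat4, which carries IL-12 signals in T and NK cells, had log2 signals of 13.59 and 14.08 on the Ackr4ko-labelled arrays (replicates 1 and 2) against 12.24 and 13.11 on the WT-labelled ones. Both arrays of experiment 2 were above their counterparts in experiment 1, and within each experiment the array labelled Ackr4ko was the brighter. The difference was 1.35 in experiment 1 and 0.97 in experiment 2, which is 2.54-fold and 1.96-fold. Over both it was 1.16 ± 0.40 (SE, n = 2 per group, 95% interval 0.25 to 2.07), with a limma adjusted p of 0.827, or 0.0291 with the block. Without WT replicate 1 the difference was 0.73. Stat4 lay at rank 293 of the 15961 genes by size of the positive difference.

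Stat3 had 2 probes, 10348 bases apart. On the brighter one, the log2 signal was 13.95 on each of the Ackr4ko-labelled arrays against 13.17 and 12.88 on the WT-labelled ones. The difference, 0.77 in experiment 1 and 1.06 in experiment 2 (1.71-fold and 2.09-fold), was of similar size in the 2 experiments. Over both it was 0.92 ± 0.33 (SE, n = 2 per group, 95% interval 0.18 to 1.66), with a limma adjusted p of 0.868 and 0.160 with the block, so Stat3 passed neither fit. The dimmer probe read 8.14 and 8.69 on the Ackr4ko-labelled arrays against 7.99 and 7.41 on the WT-labelled ones. There the difference was 0.15 in experiment 1 and 1.29 in experiment 2, so the 2 probes kept the direction but disagreed on the size in experiment 1.

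Stat5a and Stat5b, near-identical factors used by receptors with the common gamma chain and by growth factor receptors, changed sign between experiments. For Stat5a the log2 signals were 11.85 and 12.76 on the Ackr4ko-labelled arrays against 12.13 and 11.26 on the WT-labelled ones. It was lower by 0.29 in experiment 1 (a difference of -0.29) and higher by 1.50 in experiment 2, the highest and the lowest of its 4 values being the 2 arrays of experiment 2. The mean difference of 0.61 ± 0.44 (SE, n = 2 per group, 95% interval -0.40 to 1.61) came with a limma adjusted p of 1.000, or 0.599 with the block. It was 0.15 without Ackr4ko replicate 2 and 0.17 without WT replicate 2, and 1.06 and 1.05 without Ackr4ko or WT replicate 1.

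The brighter Stat5b probe read 12.20 and 12.63 on the Ackr4ko-labelled arrays against 12.35 and 12.11 on the WT-labelled ones, a difference of -0.14 in experiment 1 and 0.52 in experiment 2. The second Stat5b probe, at chr11:100642187-100642246, read 11.61 and 11.87 against 11.48 and 11.29, a difference of 0.14 and 0.58. The 2 Stat5b probes thus disagreed on the sign in experiment 1 and gave a similar size in experiment 2. The mean over both experiments was 0.19 ± 0.34 (SE, n = 2 per group, 95% interval -0.58 to 0.96).

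Stat6, the factor through which IL-4 drives class switching in B cells, had 3 probes. The brightest, at chr10:127097689-127097748 (mm9), read 11.87 and 11.50 on the Ackr4ko-labelled arrays against 11.86 and 11.24 on the WT-labelled ones. Its difference of 0.0075 in experiment 1 and 0.26 in experiment 2 lay near the median of all genes in each, and the interval of the mean, -0.69 to 0.96 around 0.13 ± 0.36 (SE, n = 2 per group), spans both directions. The second probe gave differences of -0.21 and 0.34. The third, at chr10:127083983-127084042, gave -0.63 and 0.97, but on the array labelled WT replicate 2 it had 0 of 4 spots well above background, and there its spots scattered with an SD of 0.825 against at most 0.211 for any other probe of the 10 genes. The plot of probe differences shows this Stat6 probe as the widest of the 3.

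**Figure D2:**
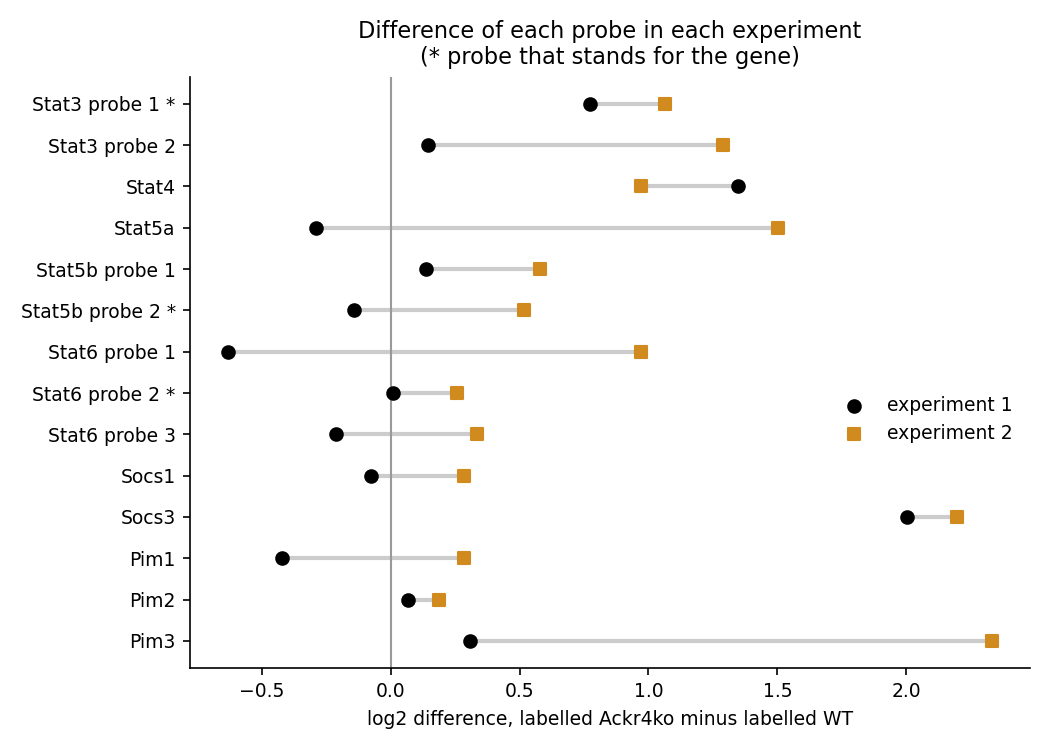
Log2 difference, array labelled Ackr4ko minus array labelled WT (horizontal axis), of each of the 14 probes (vertical axis) in experiment 1 (black circles) and experiment 2 (orange squares), with a grey line joining the 2. Socs3 lies at 2.00 and 2.20, far from 0 in both experiments; Pim3 and Stat5a have long lines, at 0.31 to 2.33 and -0.29 to 1.50.

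Of the 2 SOCS genes, Socs3 had groups that did not overlap, while those of Socs1 did. Socs3, which binds gp130-type receptors and is the main brake on STAT3, had log2 signals of 9.67 and 10.40 on the Ackr4ko-labelled arrays against 7.67 and 8.20 on the WT-labelled ones. The lowest array labelled Ackr4ko stood 1.47 log2 units above the highest labelled WT. It was 4.01-fold higher in experiment 1 and 4.59-fold higher in experiment 2, and its log2 difference over both was 2.10 ± 0.38 (SE, n = 2 per group, 95% interval 1.23 to 2.98), rank 67 of 15961. Limma gave an adjusted p of 0.237 without a block and 2.98e-07 with it, the latter from the pooled spread and not from that of Socs3. Without the array labelled WT replicate 2 the difference was 2.37 and passed without a block (limma adjusted p = 0.0334), with the lone array labelled WT assumed to vary like the other group. Leaving out WT replicate 1, Ackr4ko replicate 1 or Ackr4ko replicate 2 gave limma adjusted p-values of 0.421, 0.167 and 0.956.

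Socs1, which inhibits JAK kinases directly and restrains interferon and IL-4 signals, read 9.73 and 9.77 on the Ackr4ko-labelled arrays against 9.81 and 9.49 on the WT-labelled ones (probe at chr16:10783951-10784010, mm9). The 4 values fell within a narrow range, with a difference of -0.076 in experiment 1 and 0.28 in experiment 2. The mean was 0.10 ± 0.33 (SE, n = 2 per group, 95% interval -0.64 to 0.85).

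Promoter sequence was examined because Socs3 is a textbook STAT target. The motif TTCNNNGAA, the palindromic form bound by STAT dimers, which reads the same on both strands, was searched in windows from 250 bases before to 50 bases after each RefSeq gene start (GRCm38.p6). It occurred in 2726 of 32851 windows (8.30%) and in 1 of the 14 windows of the 10 genes, that of Socs3. The motif was thus no more common in the windows of the 10 genes than in all windows. The form with 1 more base between the arms, TTCNNNNGAA, occurred in 6.95% of windows and in 0 of those 14. The 250 bases before the Socs3 start, chr11:117969367-117969616 on the minus strand of GRCm38.p6, are shown with the match in capitals.
Socs3 upstream: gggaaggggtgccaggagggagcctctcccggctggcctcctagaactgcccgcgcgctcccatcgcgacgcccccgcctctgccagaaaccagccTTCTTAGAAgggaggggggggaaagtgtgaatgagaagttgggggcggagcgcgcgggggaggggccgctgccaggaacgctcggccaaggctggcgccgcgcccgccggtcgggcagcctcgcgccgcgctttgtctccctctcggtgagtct
The match lies 154 to 146 bases before the start. It describes letters only, and binding of a factor there was not measured.

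Of the PIM kinases, Pim3 had groups that did not overlap, while those of Pim1 and Pim2 did. Pim3, a kinase with the same constitutively active fold as its relatives, read 9.64 and 10.81 on the Ackr4ko-labelled arrays against 9.33 and 8.48 on the WT-labelled ones. The groups did not overlap, but by only 0.31 log2 units, and the 2 arrays of experiment 2 were the highest and the lowest of the 4. The difference was 0.31 in experiment 1 (1.24-fold) and 2.33 in experiment 2 (5.03-fold), with a mean of 1.32 ± 0.47 (SE, n = 2 per group, 95% interval 0.24 to 2.39). Limma gave an adjusted p of 0.873 without a block and 0.00709 with it, and the difference was 0.73 without Ackr4ko replicate 2 and up to 1.91 without another array.

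Pim1, a classical STAT5 and NF-kappaB target, read 10.45 and 9.53 on the Ackr4ko-labelled arrays against 10.87 and 9.25 on the WT-labelled ones (chr17:29630740-29630799, mm9). Its 2 arrays of experiment 1 were both brighter than its 2 arrays of experiment 2, so the experiments separated its values and the genotypes did not. The difference was -0.42 in experiment 1 and 0.29 in experiment 2, with a mean of -0.067 ± 0.55 (SE, n = 2 per group, 95% interval -1.32 to 1.19), the widest interval of the 10. Pim2, a survival kinase of lymphocytes, read 11.25 and 11.65 against 11.19 and 11.46 (chrX:7459678-7459737, mm9), a difference of 0.065 and 0.19. For Pim2 the mean was 0.13 ± 0.34 (SE, n = 2 per group, 95% interval -0.64 to 0.90).

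**Figure D3:**
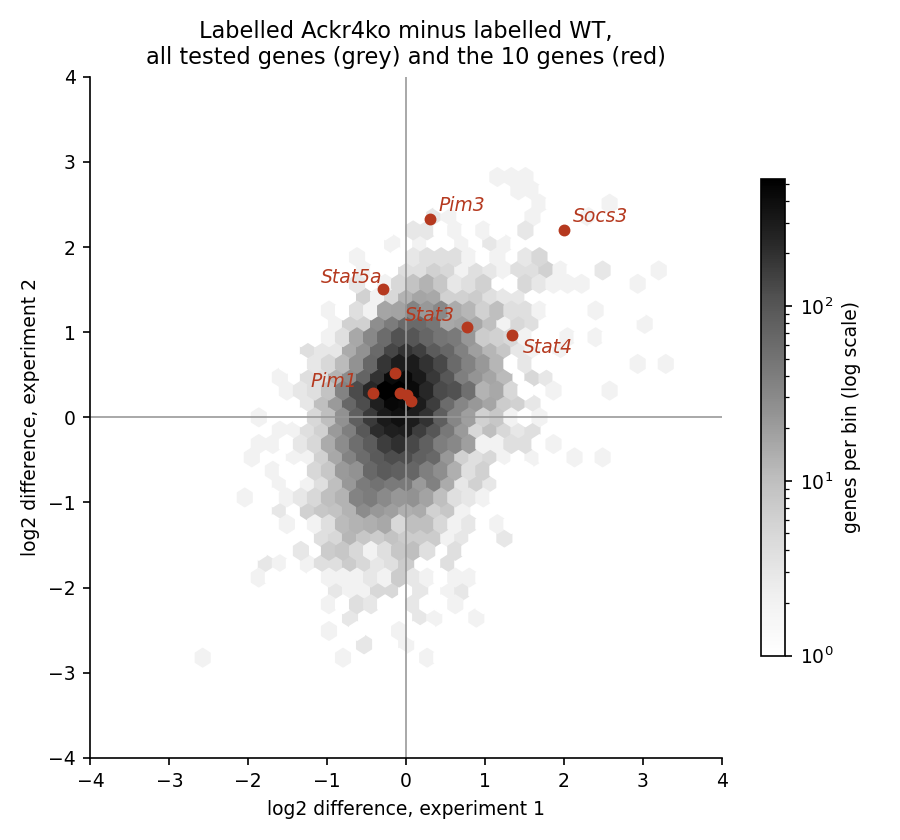
Log2 difference in experiment 2 (vertical axis) against experiment 1 (horizontal axis), array labelled Ackr4ko minus array labelled WT, with the 15961 tested genes as grey bins shaded by the number of genes on a log scale and the 10 genes as red points, 6 of them named. Socs3 lies at 2.00 and 2.20, at the upper right edge of the cloud, while Pim3 and Stat5a are high on the vertical axis alone; 20 genes beyond 4 log2 units are not drawn.

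The other genes of the pathway were read from 8 lists of 69 genes, of which 58 were tested. Limma without a block called 0 of them (5 at an unadjusted p under 0.05, against 4.59% of all genes), and with the block it called 4 (against 3.33%), all higher on the arrays labelled Ackr4ko: Il6, Cdkn1a, Bcl2l1 and Socs2. Il6 and Cdkn1a passed the detection filter only through the arrays where they were high, so they had to differ, and their calls support nothing. Without them, Bcl2l1 and Socs2 remain, a share close to that of all genes. The signs were mixed, with 19 of 58 higher and 14 lower in both experiments, beside 33.0% and 20.9% of all genes, and a median of 0.10, near that of all genes (0.083).

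Upstream of the STATs, the ligand Il6, which signals to STAT3 through gp130, had a difference that could only be set against a floor. Its log2 signals were 8.52 and 9.65 on the Ackr4ko-labelled arrays against 2.98 and 5.27 on the WT-labelled ones, where it was not well above background on either array. Against that floor the bright group's mean was 16.1-fold higher on the scaled processed signal (limma adjusted p = 0.122). The floor is the lowest signal well above background on each dim array, or the probe's own value if higher. Probes not well above background can read above that lowest signal, as Cdkn1a did on WT replicate 1 (4.52 against 4.31). The 16.1-fold is therefore not a strict lower bound. Normexp background correction, which adds an offset of 50 to every signal, gave a smaller log2 difference of 2.48 (limma adjusted p = 0.00589). That is a smaller difference than the 16.1-fold, which therefore applies to the scaled processed signal only. Its p was also under the threshold without a block when either array labelled WT was left out, but each of these p-values rests on WT-labelled values at background. Of 14 ligands 6 were tested, 2 higher (with Il6 counted) and 0 lower in both experiments.

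Receptor chains showed no common direction, with 5 of 16 tested genes higher and 6 lower in both experiments and a median of -0.047. Csf2rb, the shared chain of the GM-CSF, IL-3 and IL-5 receptors, had the smallest p, with a difference of 0.82 in experiment 1 and 0.84 in experiment 2 (limma adjusted p = 1.000, 0.260 with the block). Of the 4 JAK kinases, 0 were higher and 3 lower in both, with a median of -0.11, and Jak2 had a difference of -0.25 ± 0.32 (SE, n = 2 per group). Of the 2 other STAT genes tested, Stat2 had the smaller p, with 0.38 and -0.036 in the 2 experiments.

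Among the 6 other SOCS genes, 1 was higher and 2 were lower in both experiments. Socs2, which restrains growth hormone and STAT5 signals, read 7.92 and 9.47 on the Ackr4ko-labelled arrays against 7.44 and 7.65 on the WT-labelled ones. The difference was 0.48 in experiment 1 and 1.82 in experiment 2, with a mean of 1.15 ± 0.49 (SE, n = 2 per group) and a limma adjusted p of 1.000, or 0.0312 with the block. Leaving out Ackr4ko replicate 2 lowered the Socs2 difference to 0.38, and leaving out Ackr4ko replicate 1 raised it to 1.92. Of the 7 PIAS and phosphatase genes tested 2 were higher and 2 lower in both, and Ptpn11, the phosphatase SHP2, had differences of -0.70 and -0.16.

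Downstream, 6 of 12 STAT target genes were higher and 0 lower in both experiments, beside 33.0% and 20.9% of all genes, with a median of 0.18 beside 0.083. Bcl2l1, which encodes the survival protein BCL-XL, read 14.32 and 15.34 on the Ackr4ko-labelled arrays against 13.28 and 13.59 on the WT-labelled ones. The groups did not overlap, and the difference was 1.04 in experiment 1 and 1.75 in experiment 2 (mean 1.40 ± 0.41 SE, n = 2 per group, limma adjusted p = 0.636, 0.00332 with the block). Without Ackr4ko replicate 2 the mean was 0.89. Of 5 PIM substrates tested, 3 were higher (with Cdkn1a counted) and 1 lower in both. Cdkn1a, the cell cycle inhibitor p21 that PIM kinases phosphorylate, read 7.82 and 9.92 on the Ackr4ko-labelled arrays against 4.52 and 4.77 on the WT-labelled ones. It was not well above background on either of the latter. On the scaled processed signal it was 12.9-fold higher against the same kind of floor (limma adjusted p = 0.123). That too is not a strict lower bound, and normexp gave a smaller difference. With normexp its log2 difference was 2.38 (limma adjusted p = 0.0390), and as for Il6 its p was under the threshold without either array labelled WT, again against values at background.

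**Figure D4:**
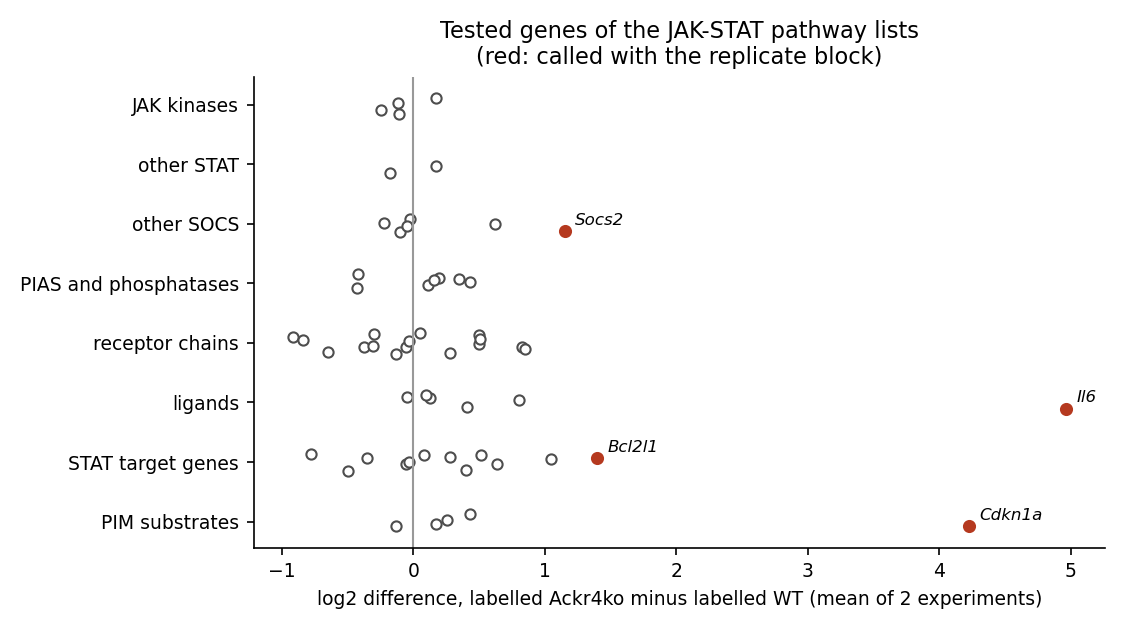
Log2 difference averaged over both experiments, arrays labelled Ackr4ko minus arrays labelled WT (horizontal axis), of the 58 tested genes in 8 pathway lists (vertical axis); each point is 1 gene, with a small vertical offset for legibility, and filled red points passed limma with the experiment as a block. Il6 and Cdkn1a lie furthest to the right, at measured differences of 4.96 and 4.22 that rest on dim values on the arrays labelled WT, while JAK kinases and other STAT genes lie near 0.

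Markers of other spleen cells were read from 4 lists. Of 8 dendritic cell markers 5 were tested, 4 higher and 0 lower in both experiments, beside 33.0% and 20.9% of all genes, with a median difference of 1.07. That count and median include Batf3 and Fscn1, which passed the detection filter only through the arrays labelled Ackr4ko and so had to be higher there. The summed signal came to 62766 and 75399 on the arrays labelled Ackr4ko against 64524 and 62972 on those labelled WT. Siglech, the brightest of the 5, made up most of each sum and differed by -0.21 and 0.20 in the 2 experiments. Flt3 (1.30 and 0.84) and Zbtb46 (0.66 and 1.33) were well above background on all 4 arrays and higher in both. Batf3 and Fscn1 were well above background only on the arrays labelled Ackr4ko, through which they passed the filter. On the scaled processed signal they were 2.59-fold and 2.40-fold higher there against the same kind of floor, which gives no strict lower bound. With normexp their log2 differences were 0.99 and 0.71, smaller than those floor-based differences. Itgax, Xcr1 and Clec9a were well above background on 0 arrays. The part of these and the other marker lists in the differences of Socs3, Stat4, Stat3 and Pim3 was not tested.

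T cell markers, relevant to Stat4, had summed signals of 52557 and 62925 on the Ackr4ko-labelled arrays against 62772 and 67788 on the WT-labelled ones, with 6 of 8 tested, 1 higher (Cd3e, 0.0042 and 0.17) and 2 lower in both experiments, and a median difference of -0.079. Lck was the brightest of them and made up most of each sum, so the sums mainly follow Lck. Cd8a and Trat1 were well above background on 0 arrays. Macrophage markers (4 of 8 tested) had summed signals of 38143 and 29039 against 47869 and 50085, with a median of -0.31, 2 lower (Adgre1 and Mpeg1) and 1 higher (Cd68, 0.85 and 0.18) in both. Mpeg1 made up most of each macrophage sum, and Lyz2, Cd14, C1qa and Vcam1 were well above background on 0 arrays. Of 7 NK cell markers 2 were tested, with summed signals, mostly of Nkg7, of 2451 and 6133 against 3007 and 3213. Ncr1, Klrb1c, Eomes, Klrk1 and Gzma were well above background on 0 arrays. B cell markers summed to 359439 and 324482 on the Ackr4ko-labelled arrays against 430001 and 396641 on the WT-labelled ones, with a median of -0.23 and 0 higher and 3 lower in both experiments.

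The plot of settings shows how the 4 separated genes depended on the processing. From the scanner files, Socs3 kept a difference of 1.74 to 2.46 under every setting, Stat4 0.73 to 1.59, Stat3 0.77 to 1.06 and Pim3 0.73 to 1.91. Under the labels of the value table the same genes were lower on the arrays of Ackr4ko, Socs3 by a difference of -1.99.

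**Figure D5:**
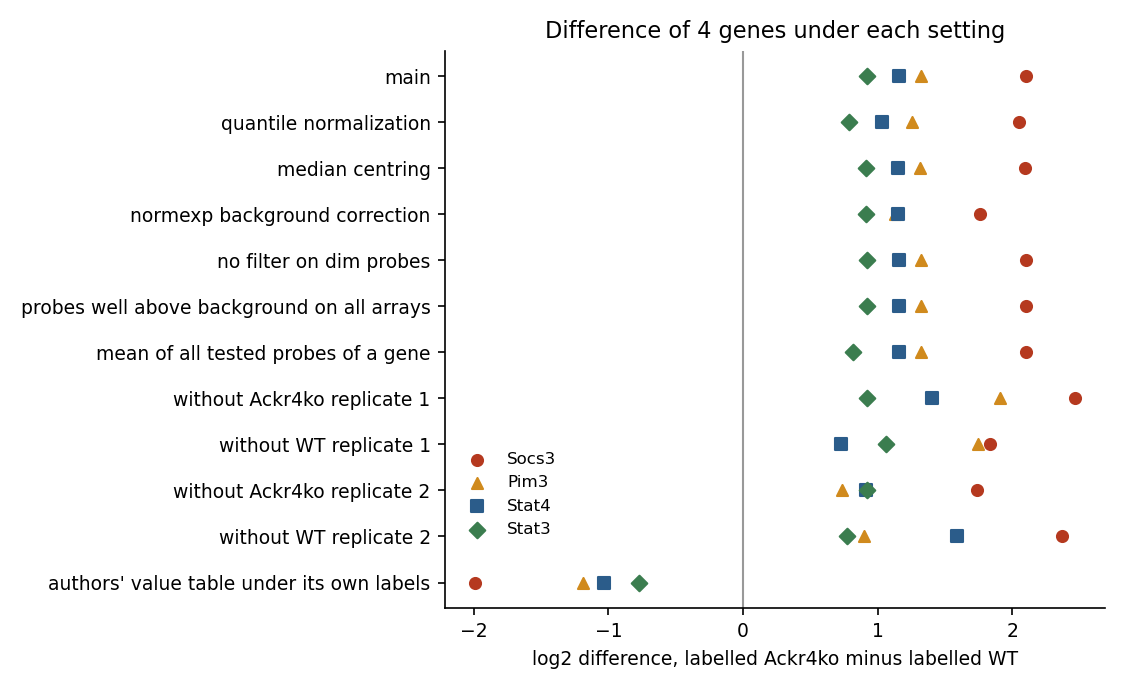
Log2 difference of Socs3, Pim3, Stat4 and Stat3 (horizontal axis) under each processing setting without a block (vertical axis), with 1 symbol shape and colour per gene. Settings with the block are not drawn, since the block changes the p-values and not these differences. Under the scanner files' labels all 4 stay to the right of 0, and under the value table's own labels all 4 lie to the left, at -1.99, -1.19, -1.03 and -0.77.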

How the data were processed

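Total RNA (50 ng, Cy3) of 4 cultures was measured on Agilent 1-colour arrays, per the labels' protocols. The deposited scanner files give spot intensity with flags and mm9 probe positions. The submitters' processing notes name Agilent Feature Extraction, version 10.7.3.1. The authors' deposited value table gives normalized intensity as whole numbers (column median 67 in each), with its method not given in the sources used here.

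Log2 processed signal was scaled to each array's 75th percentile, taken without control spots but with outlier spots. The up to 4 spots of a probe were averaged without outlier spots. No spot was saturated (0 of 157716 per array). Testing was limited to the 20862 probes with 50% or more of their spots well above background on 2 or more arrays, and the brightest tested probe stood for a gene. Of the probes, 28322 were named through the systematic accession in RefSeq, 429 through another accession, 3075 by symbol and 221 by synonym, and 7382 kept the array's name.

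Limma 3.58.1 (R 4.3.3) compared the groups (two-sided, Benjamini-Hochberg over all genes). Each SE printed after ±, and its interval, is limma's moderated value without a block, which borrows spread from all genes. It was also run on arrays simulated with normal noise from its own fitted spreads, which does not show how it behaves on these arrays. Replicate numbers mark the 2 experiments, which pairs arrays; the deviations of the 2 arrays of an experiment from their group means had a correlation of 0.42. The experiment block is therefore printed where it changes a call. The members and lists were chosen with earlier results of these data known. From the pathway lists, genes were named if called with or without the block, if they differed 2-fold or more in the same direction in each experiment, or else if of smallest p in their list. Likeness of pattern to other genes was not computed with 4 arrays. Sequences are from the array files and RefSeq.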

Additional observations from a re-analysis of the deposited data

Results flagged for a closer look

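For 4 genes the 2 experiments gave differences of opposite sign, arrays labelled Ackr4ko minus arrays labelled WT on the log2 scale. Each experiment has 1 array per genotype, so the difference between experiments was not tested. For Stat5a it was -0.29 in experiment 1 and 1.50 in experiment 2. Stat5b gave -0.14 and 0.52, and its second probe was above 0 in both. Socs1 gave -0.076 and 0.28, and Pim1 -0.42 and 0.29. Over all genes tested the median difference was -0.04 and 0.23 respectively, so the experiment 2 values of Socs1 and Pim1 lie close to it.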

How the results depend on the processing

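The number of genes called was 2, and it became 532 with the replicate block, 19 with normexp background correction, 1 with quantile normalization, 0 with no filter on dim probes (296 at an unadjusted limma p under 0.05), 0 with probes well above background on all arrays only (524) and 1 in the value table. Leaving out 1 array gave 1 to 122. Of settings chosen after seeing the data, testing probes gave 5 and the replicate block with quantile normalization 0 (1446 at an unadjusted limma p under 0.05). With that combination the adjusted p was 0.338 for Socs3, 0.581 for Pim3, 0.517 for Stat4 and 0.516 for Stat3. The 10 genes had 0 calls, 3 with the replicate block and 0 to 1 leaving out 1 array. Members higher in both experiments fell from 6 to 5 with median centring and with the mean of all tested probes of a gene. Only in the value table did members higher in both experiments become 0 and members lower in both 6. There all differences turned: Stat3 -0.77, Stat4 -1.03, Stat5a -0.46, Stat5b -0.081, Stat6 -0.032, Socs1 -0.044, Socs3 -1.99, Pim1 0.14, Pim2 -0.064, Pim3 -1.19, Jak2 0.35, Stat2 -0.10, Socs2 -1.11, Ptpn11 0.56, Csf2rb -0.71, Il6 -4.63, Bcl2l1 -1.21, Cdkn1a -4.89, Batf3 -3.04 and Fscn1 -1.87. Leaving out 1 array turned the sign of Stat5b (-0.026 to 0.40), Stat6 (-0.18 to 0.44), Socs1 (-0.055 to 0.26), Pim1 (-0.88 to 0.74), Pim2 (-0.073 to 0.33) and Stat2 (-0.075 to 0.42), where the cause was not tested.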
